A study of Mus musculus with 61 samples.

Results

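C57BL/6J and FVB/NJ, a pair of inbred mouse strains, were compared across 5 dissected regions: the hippocampus, the hypothalamus, the pituitary, the periaqueductal gray (pag) of the midbrain, and the bed nucleus of the stria terminalis (bnst) in the basal forebrain. The comparison holds the 10 arrays whose titles name C57BL/6J and the 10 whose titles name FVB/NJ, 20 of the 61 arrays of a series on 6 strains, with 2 arrays for each strain and region. All mice were wild type males of 8 weeks, bought from the same breeder and housed singly for 1 week before dissection. RNA was hybridised to 1-colour Affymetrix 430 2.0 arrays, on which most genes are read by 1 or more probe sets, each a group of short probes. A hippocampus array held 1 mouse, a hypothalamus or pag array 2 mice (1 for FVB/NJ hypothalamus replicate 2), a bnst array 2 or 3 and a pituitary array 5, and the replicate samples of a group came from different animals.

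All mice of an inbred strain are close to genetically identical, so alleles that differ between strains are fixed within each. C57BL/6J is the strain of the mouse reference genome and a standard of behavioural work. FVB/NJ is an albino strain with inherited retinal degeneration that is much used to make transgenic mice. A gene whose transcript differs in every tissue and a gene whose transcript differs in a single tissue are the classes that expression studies of inbred strains usually set apart.

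Signals were deposited on a linear scale. They were raised to a floor of 12.8, the 20th percentile of all values, and put on a log2 scale, so a gene at the floor in a strain has a difference that is understated. Differences are given as log2 C57BL/6J minus FVB/NJ with the standard error (SE) from limma, and a probe set was called where its Benjamini-Hochberg adjusted p over all 44065 probe sets tested was under 0.05. The replicates of a group correlated with r from 0.986 to 0.996 across probe sets, and the median signal per array lay between 48.2 and 67.1 in C57BL/6J and between 45.5 and 63.5 in FVB/NJ. The number of arrays limits the precision, and the residual spread was shared over all 61 arrays. The sources used here do not say whether the regions of a strain came from the same mice. All arrays were treated as independent, so the arrays of a strain may hold fewer independent samples than their number. In bulk tissue, fewer cells of a type and less RNA per cell cannot be told apart.

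The labelled tissues were checked against marker genes. The summed signal of 23 pituitary hormones and their regulators was 73672 to 84633 on the 4 pituitary arrays and at most 18982 on the 16 brain arrays. Growth hormone (Gh) nevertheless had a signal over 1000 on 5 brain arrays, namely C57BL/6J hippocampus replicate 2, C57BL/6J hypothalamus replicate 1, and replicate 1 of FVB/NJ bnst, hypothalamus and pag. The bnst arrays of both strains carried thalamic markers, whose sum was 12693 to 16237 there and at most 9808 elsewhere. They also differed between strains in choroid plexus, the tissue that secretes cerebrospinal fluid: the 16 measured markers summed to 1254 and 3427 in C57BL/6J bnst and to 10776 and 11842 in FVB/NJ bnst, with 2 and 0 members at the floor. Counts without the bnst arrays are therefore given beside those they move, and counts without the 5 arrays with Gh at the end. Leaving out these 5 arrays left a single array of a strain in each brain region, and of both strains in the hypothalamus. Fewer calls without them can therefore come from fewer arrays, and the part of pituitary RNA was not tested.

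Averaged over the 5 regions, 3660 probe sets were higher and 3588 lower in C57BL/6J (8.31% and 8.14% of those tested, 16.4% in either direction). Large differences lay more often on the C57BL/6J side, since 497 of the 665 called probe sets with a difference over 2-fold were higher in that strain. The median difference over all probe sets was 0.01. The equal split depends on the scaling: with every array brought to the same median signal it became 2157 higher and 4707 lower (31.4% higher, against 50.5%), and with quantile normalization it was 3301 and 3267. Without the bnst arrays 2311 probe sets were lower. Without the 5 arrays with Gh fewer were called on both sides, with a single array of a strain left in each brain region.

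Direction also went with signal level. When probe sets were ranked by signal and cut into 10 equal classes, in the top class (median 802) 6.94% were higher and 29.6% lower in C57BL/6J. In the fourth class from the bottom (median 32.1), 7.37% were higher and 1.82% lower. Under quantile normalization the top class held 12.4% and 16.2%, so the excess of lower calls among strongly expressed genes shrank with that scaling. With every array brought to the same median it held 2.79% and 32.7%, so the excess did not shrink there.

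Within single regions, the pituitary gave the most calls, with 1899 probe sets higher and 1731 lower in C57BL/6J (4.31% and 3.93%). In the bnst 1369 were higher and 1300 lower (3.11% and 2.95%), and in the pag 1197 and 708 (2.72% and 1.61%). The hippocampus had 631 and 366 (1.43% and 0.831%), and the hypothalamus 733 and 337 (1.66% and 0.765%). Each rests on 2 arrays against 2, and leaving out a single array moved several of these counts by more than 1.5 times, down to 602 higher and 365 lower in the bnst without FVB/NJ replicate 2 and without C57BL/6J replicate 2, respectively. Without the 5 arrays with Gh, a single array of a strain was left in each brain region, and of both strains in the hypothalamus. Fewer probe sets were then higher in each brain region, and fewer lower in the hippocampus, hypothalamus and pag. The part of lost replicates in this fall was not tested.

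In all 5 regions, 381 probe sets were called in the same direction, 265 higher and 116 lower in C57BL/6J (0.601% and 0.263% of those tested, 0.865% in either direction). Of these, 282 differed more than 2-fold in the mean, 204 of them higher in C57BL/6J. For 227 of the 381 the 10 arrays of C57BL/6J did not overlap the 10 of FVB/NJ, where 0.869% of all probe sets, 383, had no overlap. By contrast, 4378 probe sets were called in 1 region and 37767 in none, and 2904 of those called in the mean were called in no single region. Adding the bnst removed few: 396 probe sets were called in the same direction in the other 4 regions, and 381 of them in the bnst too. Without the 5 arrays with Gh, fewer were called in all regions, with a single array of a strain left in each brain region.

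**Figure D1:**
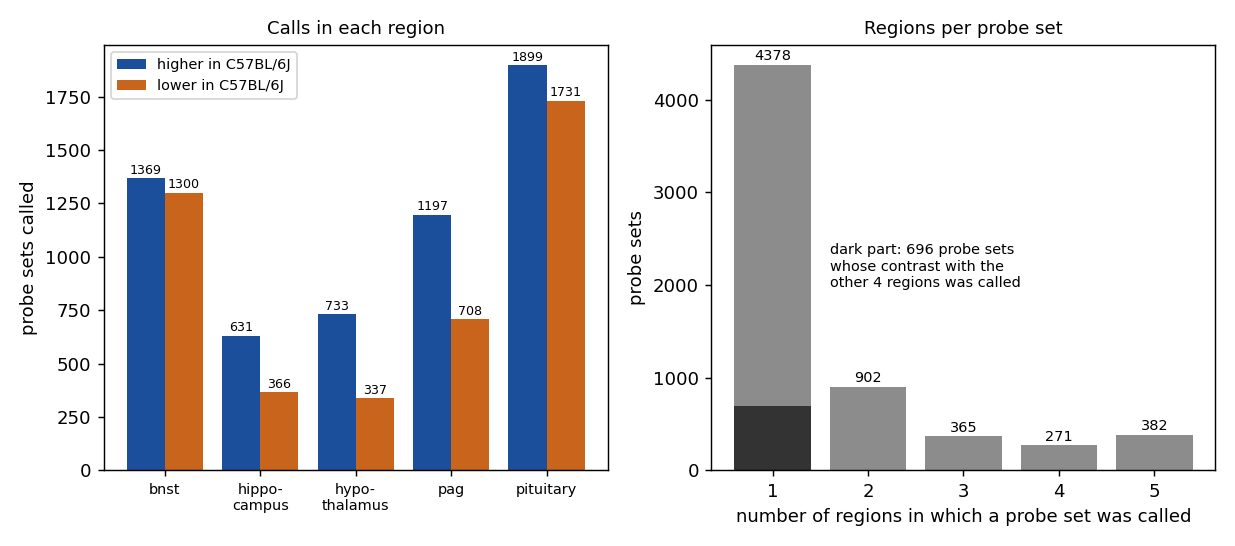
Calls of the strain comparison. Left, number of probe sets called higher or lower in C57BL/6J in each of the 5 regions, largest in the pituitary (1899 and 1731); right, number of probe sets by the number of regions in which they were called, from 4378 in 1 region to 382 in 5, of which 381 had 1 direction.

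A gene was represented by its probe set with the highest mean signal, and 132 genes were called in all 5 regions, 78 higher and 54 lower in C57BL/6J. The 12 that differed most to either side are described here, ordered by their roles. Among them, the microRNA locus Mir1931, is named only.

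Gdpd3, Tmem87a, Pi4kb and Galc encode proteins of membranes and lipid metabolism. Gdpd3 encodes a membrane-bound phosphodiesterase that acts on lysophospholipids. Its signal in C57BL/6J had a lowest value of -3.78, a median of 4.86 and a highest of 24.3, and in FVB/NJ 244, 453 and 2437. On 9 of the 10 C57BL/6J arrays it was at the floor and on no FVB/NJ array, and both FVB/NJ pituitary arrays stood far above the FVB/NJ brain arrays. The difference was -5.31 (SE 0.09, n = 10 and 10 arrays, limma adjusted p = 1.04e-31).

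Tmem87a, a multipass protein of the Golgi, ranged in C57BL/6J from -7.70 through a median of 8.85 to 28.6 and in FVB/NJ from 275 through 319 to 543. The groups were far apart, and the difference was -4.52 (SE 0.06, limma adjusted p = 2.15e-34). C57BL/6J was the strain that stood alone: its mean was 8.74, and the means of 129S6/SvEvTac, A/J, C3H/HeJ and DBA/2J lay between 336 and 347, near the 362 of FVB/NJ. For Gdpd3 the order was another one, with 5.95 in C57BL/6J, 782 in FVB/NJ, 402 in 129S6/SvEvTac and at most 9.25 in the remaining strains.

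Pi4kb, a phosphatidylinositol 4-kinase of the Golgi, measured 9.99, 19.8 and 34.9 (lowest, median, highest) in C57BL/6J and 65.3, 105 and 132 in FVB/NJ. These arrays did not overlap either (difference -2.30, SE 0.15), but the gene's other probe set differed by -0.05 and was not called. Galc, the lysosomal enzyme that breaks down the myelin lipid galactosylceramide, went the other way, with 99.3, 203 and 235 in C57BL/6J and 12.6, 22.5 and 37.5 in FVB/NJ (difference 3.08, SE 0.16). One further Galc probe set differed by -0.31 and was called, and another by 0.04, so the probe sets of this gene disagreed.

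Among signalling and cytoskeletal genes, Cap1 and Gnb1 were lower in C57BL/6J on each of their probe sets. Cap1 encodes a cyclase-associated protein that turns over actin filaments. It measured 76.0, 112 and 139 in C57BL/6J and 790, 844 and 1251 in FVB/NJ, with no overlap, and differed by -3.08 (SE 0.05, limma adjusted p = 2.44e-33). Its second probe set gave -3.25, also in all 5 regions, and C57BL/6J with a mean of 109 stood apart from the other strains, whose means were 881 to 946.

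Gnb1, a beta subunit of heterotrimeric G proteins, measured 786, 891 and 1057 in C57BL/6J and 1836, 2880 and 3412 in FVB/NJ. The highest C57BL/6J array was below the lowest FVB/NJ array, with a difference of -1.58 (SE 0.04, limma adjusted p = 1.48e-28). Its other probe sets gave -1.95 and -2.60 and were called in all 5 regions. Gprc5b, an orphan G protein-coupled receptor, differed by -1.999 on one probe set and by 0.06 on its other. Arhgap21 was higher in C57BL/6J by 2.83 (SE 0.07) and differed by -0.11 on its other probe set. In Arhgap21 it was FVB/NJ, with a mean of 111, that stood apart from the other strains at 739 to 780.

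Pttg1, Rpgrip1 and Acad9, with roles in the cell cycle, cilia and mitochondria, were higher in C57BL/6J. Pttg1, the securin that holds back separation of sister chromatids, measured 1061, 1394 and 1924 in C57BL/6J and 88.6, 152 and 300 in FVB/NJ. The arrays did not overlap, the difference was 3.18 (SE 0.11, limma adjusted p = 3.07e-22), and both other probe sets were higher as well, by 1.53 and 2.44. C57BL/6J was again alone, since its mean was 1431 and those of the other strains 94.5 to 178.

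Rpgrip1, a scaffold of the photoreceptor cilium, measured 710, 792 and 944 in C57BL/6J and 57.6, 89.2 and 112 in FVB/NJ. It differed by 3.24 (SE 0.11, limma adjusted p = 1.87e-23), and its other probe sets by 0.15 and 0.00. Acad9, which is needed to assemble mitochondrial complex I, measured 124, 169 and 199 in C57BL/6J and 0, 16.4 and 60.4 in FVB/NJ, again without overlap. Its difference was 2.94 (SE 0.11), a second probe set gave 1.22, and here FVB/NJ with a mean of 23.2 was the strain apart.

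**Figure D2:**
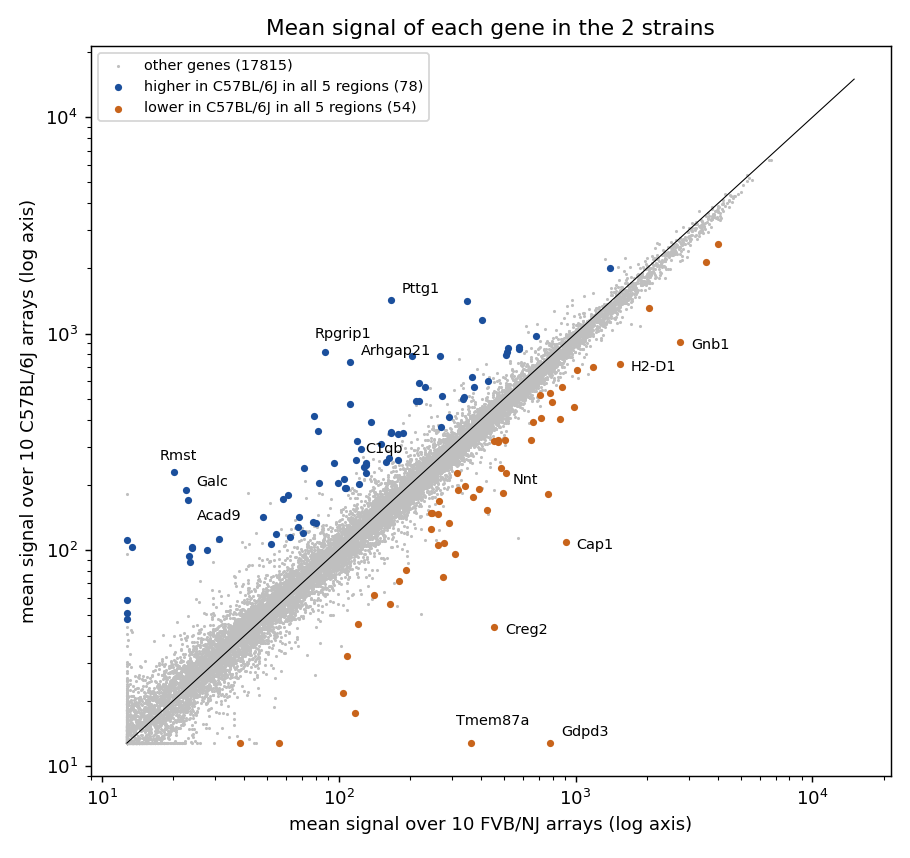
Mean signal of each gene's representative probe set over 10 FVB/NJ arrays (x axis) and 10 C57BL/6J arrays (y axis), both on log axes with values under 12.8 drawn at 12.8. Blue points are the 78 genes higher and orange points the 54 genes lower in C57BL/6J in all 5 regions; Gdpd3 and Tmem87a lie farthest below the diagonal, at means of 5.95 against 782 and 8.74 against 362.

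The remaining genes included non-coding transcripts and a microglial receptor. Rmst, a long non-coding RNA of neural progenitors, measured 79.4, 261 and 396 in C57BL/6J and 3.65, 18.7 and 44.8 in FVB/NJ (difference 3.38, SE 0.24), and its other probe set gave 0.35 and was not called. Snhg12, a host of small nucleolar RNAs, had 271, 348 and 454 against 49.9, 80.4 and 130, a difference of 2.13 (SE 0.06). Fcrls, an Fc receptor-like gene that marks mouse microglia, had 44.6, 100 and 179 against -6.57, 13.7 and 34.3, a difference of 2.52 (SE 0.16). In all 3 genes the lowest C57BL/6J array lay above the highest FVB/NJ array.

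Soga3, 2610507I01Rik and Ttc27 were higher in C57BL/6J by 2.38, 2.21 and 2.19. Creg2, a secreted glycoprotein of the brain, differed by -3.13 (SE 0.20), with a mean of 454 in FVB/NJ and of 27.6 to 47.1 in the other strains, C57BL/6J included. AI506816, Hddc3, Ocel1, Ttc5 and Lcorl differed by -2.75, -1.82, -1.81, -1.74 and -1.72. Hddc3 and Ttc5 had another probe set at 0.45 and 0.57, and Lcorl 5 others between -0.43 and 0.25, none of them called.

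These disagreements were common. Of the 132 genes, 85 had at least 1 more probe set; in 7 of them every other probe set was called in the same direction in all 5 regions, in 47 at least 1 was called in the mean in the same direction, in 15 at least 1 in the opposite direction, and in 29 none was called. Mapk14, Prune2 and Prdx2 were chosen after their values were seen. Mapk14, the p38 stress kinase, differed by 0.04 on its strongest probe set, but by -3.21 on another called in all 5 regions. Prune2 had one probe set at -1.04 and another at 5.03, each called in all 5 regions. Prdx2, a peroxidase, differed by -0.29 on its strongest probe set and by 3.36 on the other. The deposited table holds a single value per probe set, and DNA differences beneath the probes were not tested.

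Of the 131 of these genes that could be placed on the mouse assembly, 12 had an immediate measured neighbour that was also called in all 5 regions, in 6 pairs among 17767. Ttc5 and Ccnb1ip1 differed by -1.74 and -1.35, Mccc1 and Acad9 by 1.02 and 2.94, Ppt1 and Cap1 by -0.52 and -3.08, and AI506816 and Pus7 by -2.75 and -0.97. The other two pairs went opposite ways, with Rpgrip1 at 3.24 beside Supt16 at -0.62 and Khdrbs1 at 0.58 beside Ptp4a2 at -1.10.

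The other 4 strains placed these probe sets on either side. For 112 of the 381, the means of all 4 were nearer to FVB/NJ than to C57BL/6J, and for 84 all 4 were nearer to C57BL/6J. The rest split the strains, with 1 strain nearer to C57BL/6J for 63 probe sets, 2 for 65 and 3 for 57. Over all 44065 probe sets, 4298 had all 4 strains nearer to C57BL/6J, 11387, 10878 and 8178 had 1, 2 and 3 nearer to it, and 9324 had none. Ties were counted as not nearer to C57BL/6J. The 9324 therefore include probe sets at which C57BL/6J and FVB/NJ were both at the floor, and are not a count of those nearer to FVB/NJ. AI506816, at 118 in FVB/NJ and 123 in DBA/2J but 15.3 to 19.3 in the rest, was an example of a split.

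**Figure D3:**
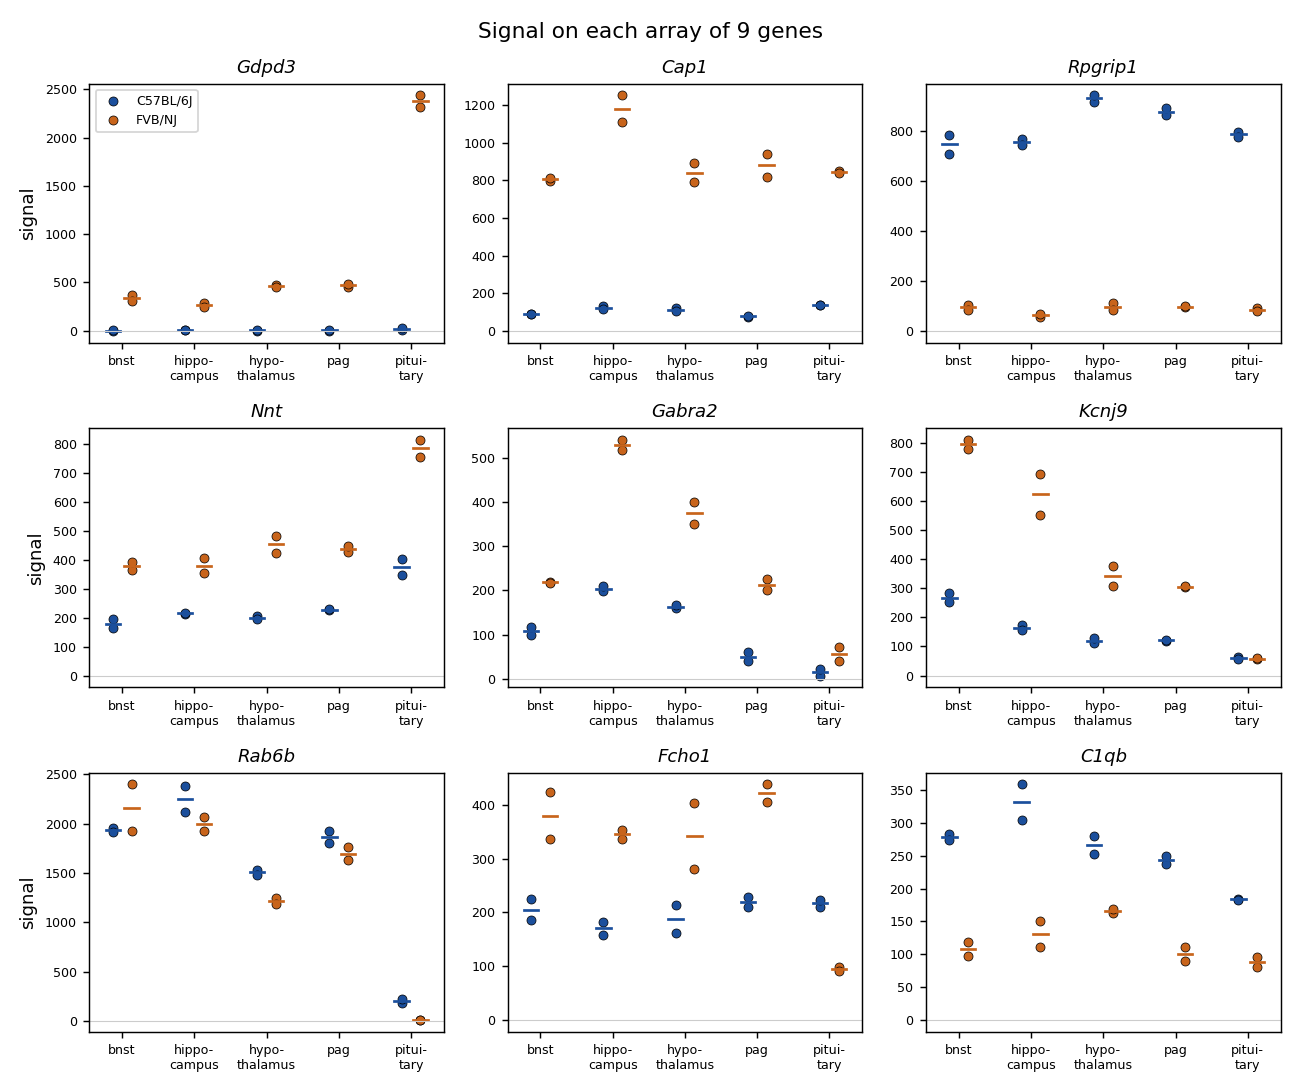
Signal on each of the 20 arrays (y axis, linear scale) by region and strain for Gdpd3, Cap1, Rpgrip1, Nnt, Gabra2, Kcnj9, Rab6b, Fcho1 and C1qb, with 2 points per group and a bar at their mean. The first 3 genes are separated in every region, Kcnj9 in the brain regions and not in the pituitary, Rab6b in the pituitary (180 and 224 against 9.81 and 9.98), and Fcho1 turns direction there.

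Genes known to carry DNA variants between inbred strains were listed by name, and 16 were measured, of which 2 were higher, 5 lower and 9 not called in the mean (median -0.03, beside 8.31% higher, 8.14% lower and a median of 0.01 over all probe sets). Nnt, the mitochondrial transhydrogenase in which C57BL/6J is known to carry a deletion, measured 165, 215 and 401 in C57BL/6J and 353, 424 and 814 in FVB/NJ. Within every region both C57BL/6J arrays were below both FVB/NJ arrays, and the pituitary was highest in each strain. The difference was -1.02 (SE 0.06, limma adjusted p = 3.88e-15), called in all 5 regions, a second probe set gave -0.91, and the third, at 0.33, was not called. C57BL/6J had the lowest mean of the 6 strains, 239 against 356 to 504.

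Gabra2, the alpha 2 subunit of the GABA-A receptor, is known to carry an intronic deletion in C57BL/6J. It measured 7.29, 108 and 209 against 40.2, 222 and 541, which overlap across regions and separate within them. The difference was -1.48 (SE 0.12, limma adjusted p = 3.48e-12), and 3 further probe sets gave -1.08, -1.32 and -1.09, while another was at the floor on all 20 arrays. Alad, the heme synthesis enzyme whose copy number differs between strains, measured 90.3, 131 and 160 in C57BL/6J and 207, 295 and 347 in FVB/NJ without overlap (difference -1.15, SE 0.06, limma adjusted p = 4.06e-17). The other Alad probe set differed by -0.44, was called in the hippocampus alone of the regions, and had overlapping arrays, at 33.2 to 160 against 60.5 to 213. Apoa2, a lipoprotein known to vary between strains, was higher by 1.33 and called in 3 regions, and Glo1, the glyoxalase, by 0.22.

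Over all probe sets, 8.31% were higher and 8.14% lower in the mean. These shares were not matched to the signal of the lists that follow. The lower share rose with signal, from 12.5% in the class with a median of 188 to 29.6% in the top class (median 802). The median signal was 295 for potassium channels, 319 for clock genes, 396 for NADPH, glutathione and antioxidant enzymes and 2600 for ribosomal proteins. Whether these lists had more lower genes than probe sets of the same signal was not tested. In the gene group of GABA-A receptor subunits, 3 of 12 were higher, 3 lower and 6 not called in the mean (median 0.06). Beside Gabra2 these were Gabrg3 (0.60), Gabre (0.65), Gabra5 (0.30), Gabrb1 (-0.17) and Gabrg1 (-0.23). Of 15 AMPA, kainate and NMDA receptor subunits, 0 were higher and 3 lower by limma after adjustment (0 and 5 at an unadjusted p under 0.05, median -0.07), the AMPA receptor genes Gria1 (-0.38) and Gria4 (-0.28) and the kainate receptor gene Grik5 (-0.26).

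Of 42 potassium channel genes, 4 were higher and 8 lower (median -0.04). Kcnj9, a subunit of the G protein-gated channels that quiet neurons, had brain means of 168 in C57BL/6J and 517 in FVB/NJ, and pituitary values of 64.5 and 58.1 against 55.5 and 61.6. It was called in the 4 brain regions, at -1.58, -1.91, -1.51 and -1.34, and stood at 0.07 in the pituitary. The contrast of the pituitary with the brain regions was 1.65 (limma adjusted p = 3.98e-05). Its other 3 probe sets differed by -0.09, 0.13 and -0.02 in the mean. Kcnj6, a partner subunit, was higher by 0.81, Kcnip3 by 0.84, and Kcnn2 and Kcnip2 differed by -0.55 and -0.60.

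Of 30 genes of synaptic vesicle release, 1 was higher, 14 lower and 15 not called, with a median of -0.18 where all probe sets had 0.01. Syt11, a synaptotagmin, and Stx1a, the plasma membrane syntaxin of vesicle fusion, differed by -0.36 and -0.34. Syp, a vesicle membrane protein, differed by -0.32 and Rab3a, a vesicle GTPase, by -0.24. Doc2b, a calcium sensor, was the gene that was higher, by 0.28. These are strongly expressed genes (median of their mean signals 877), the level at which 29.6% of all probe sets were lower. Under quantile normalization 9 of the 30 were lower (median -0.14), and under median scaling 16 (median -0.28).

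The respiratory chain and ATP synthase list was similar in this respect. Of 56 genes, 2 were higher, 24 lower and 30 not called (median -0.10), and within the bnst 21 were lower (2.95% over all probe sets). Under quantile normalization 7 were higher and 12 lower (median -0.01), and under median scaling 2 and 25 (median -0.19). The size of the excess of lower genes thus depends on the scaling. Cox6a1, a subunit of cytochrome oxidase, measured 2711, 3405 and 4221 in C57BL/6J and 3377, 4111 and 5135 in FVB/NJ. The ranges overlap, and the difference was -0.28 (SE 0.04). The exceptions were a pair of complex I subunits: Ndufs4 measured 731, 835 and 1043 against 457, 549 and 750 (difference 0.57, SE 0.04, limma adjusted p = 6.48e-14, all 5 regions), and Ndufv3 was higher by 0.56 in 4 regions. Other Ndufs4 probe sets differed by 0.58 and -0.37, both called, and by -0.14, not called.

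Of 38 genes for NADPH, glutathione and antioxidant enzymes, 4 were higher, 16 lower and 18 not called (median -0.11). Beside Nnt these included Gpx3 (-0.51), Gsta4 (-0.42), Mgst1 (-0.40) and Sod1 (-0.28). Gstm6, a glutathione transferase, was higher in all 5 regions by 1.04 (SE 0.09), with means of 118 and 54.6. Gsto1, another transferase, was higher by 0.49 in the mean and by 1.16 in the pituitary. Of 34 ribosomal protein genes 1 was higher and 7 lower (median -0.06). Their median was 0.03 under quantile normalization and -0.16 under median scaling.

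Of 21 circadian clock genes, 1 was higher, 7 lower and 13 not called (median -0.10). Per3, a period gene, measured 126, 141 and 389 in C57BL/6J and 261, 309 and 788 in FVB/NJ. The pituitary was the high end of both strains, and within each region the strains were apart (difference -1.05, SE 0.07, limma adjusted p = 8.23e-15). Other Per3 probe sets disagreed: -3.10 and -1.50 on a pair, and 0.56 and 0.45 on another, all called in the mean, and -0.12 on a further one that was not called. Csnk1e, the kinase of period proteins, differed by -0.73 in all 5 regions on 1 of its probe sets and by -0.04 and -0.22 on the others. The clock output gene Dbp differed by -0.43. The hour at which each mouse was dissected was not used here.

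Of 17 microglia genes, 6 were higher, 1 lower and 10 not called (median 0.15). C1qa, C1qb and C1qc encode C1q, the complement protein that starts the classical pathway. C1qb had the largest difference of the list and measured 183, 263 and 359 in C57BL/6J and 81.0, 111 and 169 in FVB/NJ. The groups did not overlap, and the difference was 1.15 (SE 0.08, limma adjusted p = 2.84e-14). Its other probe sets were higher in the mean by 0.68 and 0.75, were called in 0 and 2 regions, and had overlapping arrays. The related C1qc was higher by 0.93 (SE 0.07) in 4 regions, and C1qa by 0.37.

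Fcer1g, an adaptor of Fc receptors, was higher by 0.95 and Tyrobp, the adaptor of the microglial receptor TREM2, by 0.31. Tmem119, which marks resident microglia, differed by -0.31. C1qb was higher in C57BL/6J, at a mean of 261, than in the other 5 strains at 119 to 156. In the pituitary 5 of the 17 were higher (median 0.50), where 4.31% of all probe sets were. The summed signal of the 17 there was 2011 and 2024 in C57BL/6J against 1345 and 1464 in FVB/NJ. In the bnst it was 3495 and 3626 against 3155 and 3374. Under median scaling 3 of the 17 were higher, and under quantile normalization 5.

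Of 25 genes of the MHC and antigen presentation, 4 were higher, 2 lower and 19 not called (median 0.04). The strains carry different MHC haplotypes, and near-identical class I genes share probes, so these values are uncertain. H2-D1, a classical class I gene, measured 326, 475 and 1990 in C57BL/6J and 572, 1329 and 3442 in FVB/NJ. The ranges overlap across regions, and the difference of -1.15 (SE 0.07, limma adjusted p = 7.94e-16) was called in each. H2-T24, a non-classical gene, measured 35.1, 44.1 and 82.6 against 0.61, 9.83 and 15.6, with no overlap (difference 1.81, SE 0.15). Of 31 interferon-induced genes 5 were higher and 1 lower (median 0.07), led by Ifit3 at 1.06.

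Lists with few calls in the mean are given by their counts. Of 20 immediate early genes 3 were higher and 2 lower (median 0.27), Nr4a1, a nuclear receptor, by 1.09, and Egr1, a zinc finger factor, by 0.64. Of 19 oligodendrocyte and myelin genes 2 were higher and 0 lower by limma after adjustment (6 and 0 at an unadjusted p under 0.05, median 0.18), Opalin (0.57) and Cldn11 (0.37). Of 15 endothelial genes 5 were higher and 4 lower. Of 23 serotonin, dopamine and noradrenaline genes 1 was higher, the serotonin receptor Htr3a (0.48). Of 25 hypothalamic neuropeptides Pdyn (0.66), the dynorphin precursor, was higher, and Nmb (-0.55) and Cck (-0.24) were lower. Of 18 stress axis genes Sgk1 (0.58) and Hsd11b1 (0.38), which regenerates active corticosteroid, were higher, and Zbtb16 (-0.56) and Crhr2 (-0.46) lower.

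**Figure D4:**
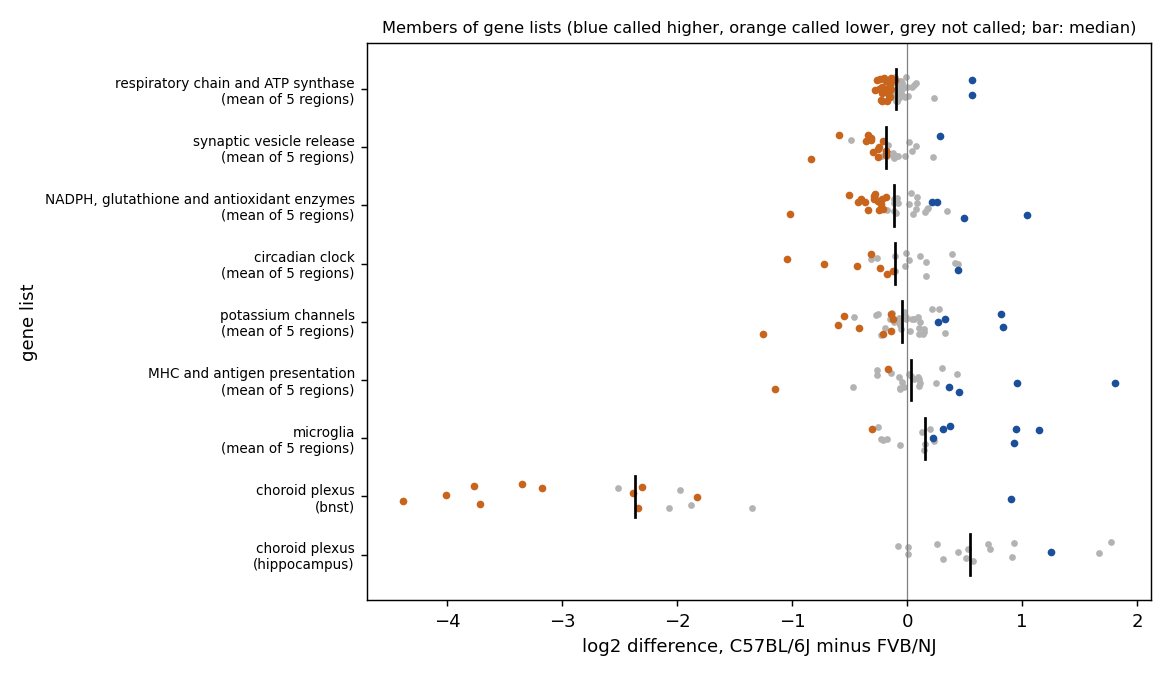
Log2 difference (x axis), C57BL/6J minus FVB/NJ, of each measured member of 8 gene lists (rows): the mean over 5 regions for the first 7, and the bnst and the hippocampus for choroid plexus. Points are genes, blue called higher, orange called lower and grey not called, and bars are medians, at -0.18 for synaptic vesicle release, -0.10 for the respiratory chain, 0.15 for microglia, and -2.36 and 0.55 for choroid plexus in the bnst and the hippocampus.

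Some differences held in all brain regions and not in the pituitary. In 93 probe sets the 4 brain regions were called in the same direction and the pituitary was not, and in 44 of them the contrast of the pituitary with the brain regions was called as well, which gave 20 genes, 13 higher and 7 lower in C57BL/6J. Serpina3n, a protease inhibitor that astrocytes make, had brain means of 137 and 707 and pituitary means of 19.2 and 25.0. Its brain arrays were lower in C57BL/6J (mean difference over 5 regions -2.08), and the contrast was 2.14 (limma adjusted p = 6.90e-06). Sox2ot, a long non-coding RNA that overlaps Sox2, had brain means of 224 and 47.9 and pituitary means near the floor. Pla2g4e, a phospholipase, had 69.1 and 199 in the brain and 76.3 and 64.9 in the pituitary. Serpina3n, Sox2ot and Pla2g4e were chosen after their values were seen.

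The strain difference itself varied between regions, by limma's F test, in 468 probe sets (1.06%), 35 of them among the 381. Gdpd3 was one (adjusted p = 1.33e-06), at -7.07 in the pituitary and -4.37 to -5.20 in the brain regions. Cap1 ranged from -2.62 in the pituitary to -3.50 in the pag (adjusted p = 0.00571), and Gnb1 from -1.22 to -1.95 (adjusted p = 0.000305).

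A difference was placed in 1 region where that region alone was called and its contrast with the mean of the other 4 was called too. By this rule 696 probe sets differed in 1 region. The adjustment was made within each region's comparison, so a contrast of the same strength can be called in a region with many calls and not in another. The pituitary held 666 of them (1.51%), the bnst 9 (0.0204%), the hippocampus 11 (0.025%), the pag 7 (0.0159%) and the hypothalamus 3 (0.00681%). The brain regions' counts rose up to 51, 25, 33 and 20 when a single array was left out (FVB/NJ bnst replicate 1, FVB/NJ hippocampus replicate 2, C57BL/6J pag replicate 1 and FVB/NJ hypothalamus replicate 2). The pituitary count was 238 with every array at the same median and 816 with quantile normalization, of which 219 and 457 were among the 666.

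The pituitary genes numbered 322, of which 147 were higher in C57BL/6J. In 67 of the 666 probe sets all 16 brain arrays were at the floor. Rab6b, a Rab GTPase of retrograde transport that is abundant in neurons, measured 180 and 224 in the C57BL/6J pituitary and 9.81 and 9.98 in the FVB/NJ pituitary. Both FVB/NJ arrays were at the floor there, while the brain arrays of both strains lay between 1187 and 2399. The pituitary difference was 3.97 (SE 0.12), and it varied between regions with a limma F test adjusted p of 2.59e-19. Its other 3 probe sets were also called in the pituitary, at 2.83, 1.61 and 1.59. However, 2 of them were called in the bnst and pag too, one at 0.80 and 0.93 and one at 1.53 and 1.49, so the probe sets of Rab6b disagreed on whether the brain differed.

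Stab2, a scavenger receptor of sinusoidal endothelium, measured 146 and 137 against 24.1 and 22.4 in the pituitary (difference 2.61, SE 0.39) and 15.4 to 40.7 in the brain. Hrct1 measured 70.3 and 65.2 against 12.9 and 19.5 (difference 2.10, SE 0.47), and the call of this pituitary difference was lost without FVB/NJ pituitary replicate 1. Psat1, an enzyme of serine synthesis, measured 163 and 207 against 796 and 784 (difference -2.10, SE 0.12), and Bcat1, which transaminates branched-chain amino acids, 70.0 and 94.8 against 1021 and 973 (difference -3.61, SE 0.15). On these probe sets Bcat1 was also called in the hypothalamus, at -0.53, and Psat1 in the pag, at -0.46. Neither probe set therefore met the rule for 1 region. Another probe set of Bcat1 (-3.60 in the pituitary) and another of Psat1 (-2.97 there) did meet it. A further Bcat1 probe set was called lower in the pituitary (-0.87) but higher in the pag (1.01) and in the mean (0.42). Angpt1, an endothelial growth factor, measured 341 and 333 against 980 and 915. Psat1, Bcat1 and Angpt1 were chosen after their values were seen.

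Members of the gene lists also moved in the pituitary. H2-Eb1, an MHC class II gene, measured 187 and 231 against 31.7 and 54.3 there, a difference of 2.33 (SE 0.40, limma adjusted p = 0.000118). Rasd2, a small GTPase, measured 131 and 137 against 49.0 and 48.0 (difference 1.47), and Kcnip2, a potassium channel partner, 116 and 104 against 314 and 325 (difference -1.54). Ctss, a lysosomal protease of microglia and macrophages, measured 397 and 432 against 225 and 196, and was called in no brain region. Of 23 pituitary hormones and their regulators 0 were called in the pituitary by limma after adjustment, and 3 passed an unadjusted p of 0.05, 1 higher and 2 lower (median 0.01).

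**Figure D5:**
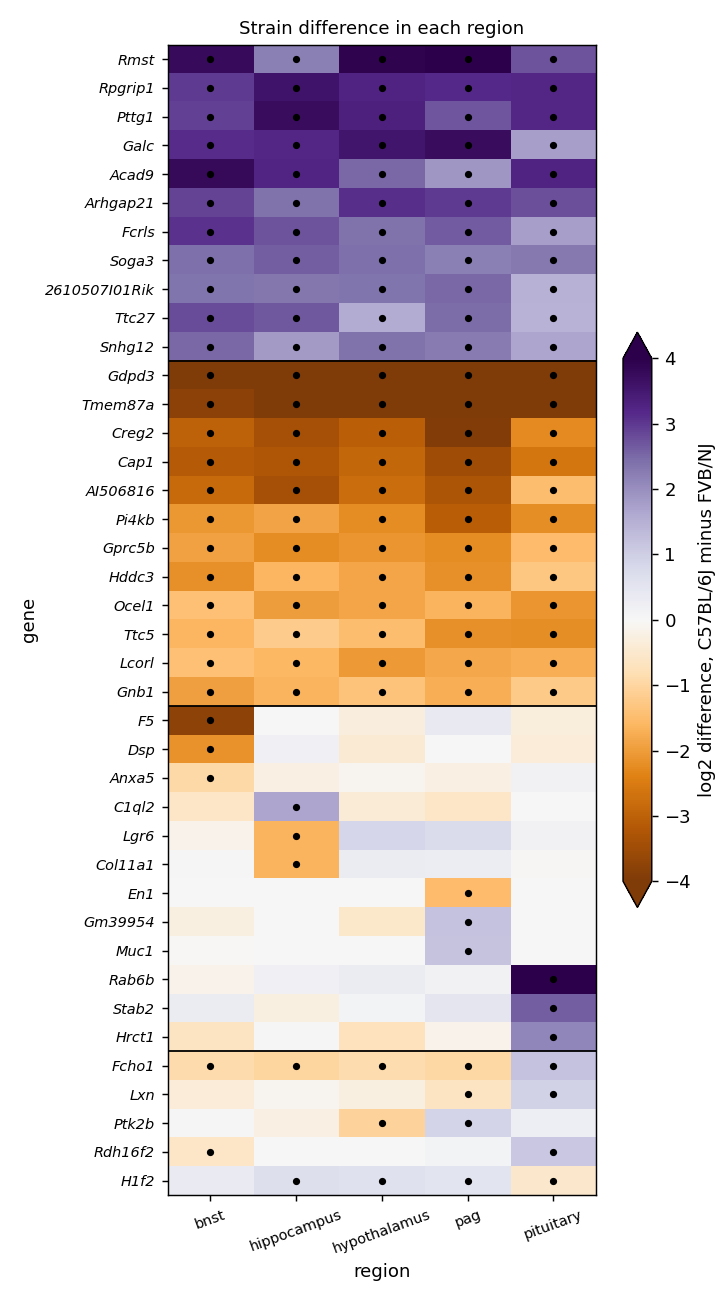
Heat map of the log2 difference, C57BL/6J minus FVB/NJ, of the 40 named genes (rows) in the 5 regions (columns), with a dot where the region was called; colours are cut off at 4 in either direction. The upper rows hold genes called in all 5 regions, the lower rows those different in 1 region or in opposite directions, such as Rab6b (3.97 in the pituitary) and Fcho1 (1.20 in the pituitary, -0.85 to -1.02 in the brain).

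In the hippocampus, 3 genes had the largest contrasts. C1ql2, a C1q-like protein of hippocampal mossy fibre synapses, measured 526 and 626 in C57BL/6J and 180 and 181 in FVB/NJ, with differences of -0.57, -0.40 and -0.58 in the bnst, hypothalamus and pag that were not called. The hippocampal difference was 1.67 (SE 0.24, limma adjusted p = 7.80e-06). Col11a1, a fibrillar collagen, measured 60.0 and 52.0 against 167 and 183 (difference -1.65, SE 0.20). Its other probe set differed in the hippocampus by -1.36 and was not called. Lgr6, a receptor for R-spondins, measured 34.5 and 21.7 against 83.5 and 87.2 (difference -1.64, SE 0.37). This call was lost without C57BL/6J hippocampus replicate 2, without either FVB/NJ hippocampus array, and without the 5 arrays with Gh. The other Lgr6 probe set differed in the hippocampus by -1.06 and was not called.

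Chosen after their values were seen, Wbp11, a splicing factor, measured 574 and 604 against 952 and 1114 in the hippocampus, and Ccnd1, cyclin D1, differed there by 1.28 and 1.08 on a pair of probe sets. The hippocampus had a single mouse per array. The choroid plexus markers summed to 1655 and 7295 in the C57BL/6J hippocampus and 1788 and 2803 in the FVB/NJ hippocampus, and their part in these differences was not tested.

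In the bnst, choroid plexus markers moved with the strain: 10 of 16 were lower in C57BL/6J and 1 higher, with a median difference of -2.36 beside 0 over all probe sets. Of all probe sets, 2.95% were lower and 3.11% higher there. Kl, the klotho gene, measured 34.7 and 61.8 against 890 and 626, and Ttr, which carries thyroxine in cerebrospinal fluid, 590 and 2620 against 5897 and 8514. The Ttr difference of -2.51 was not called. F5, coagulation factor V, is itself on the choroid plexus list and led the genes of the bnst, at 13.1 and 12.4 against 222 and 139 (difference -3.77, SE 0.66, limma adjusted p = 0.000251). Dsp, desmoplakin of cell junctions, measured 5.01 and 2.54 against 67.2 and 47.0 (difference -2.14, SE 0.32), while its other probe sets differed in the bnst by 0.40 and -1.03 and were not called. Anxa5, a phospholipid-binding annexin, measured 512 and 525 against 960 and 1005 (difference -0.92, SE 0.14). Whether Dsp and Anxa5 came with choroid plexus tissue was not tested.

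In the pag, En1, a homeobox factor of the midbrain, was at the floor on all arrays of the other regions. It measured 61.9 and 49.95 in C57BL/6J and 148 and 172 in FVB/NJ, a difference of -1.52 (SE 0.20, limma adjusted p = 1.92e-06). The list of 17 midbrain and brainstem markers had 3 lower members in the pag, where 1.61% of all probe sets were lower. Its median there was -0.29, with sums of 4357 and 4931 against 5384 and 6248. The counts and sums of this list were not taken without En1, and the part of dissection in the En1 value was not tested. Gm39954 and the mucin gene Muc1 were higher in the C57BL/6J pag by 1.20 and 1.17 at signals of at most 35.1, and the Muc1 call was lost with a floor at the 10th percentile. Ighm, the heavy chain of immunoglobulin M, measured 192 and 169 against 53.2 and 40.1 and was chosen after its values were seen.

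In the hypothalamus the 3 probe sets were of Serpina1b, Lyve1 and Slc38a4, and none represented its gene under the rule. Named as so few, they were lower in C57BL/6J. Lyve1, a receptor of lymphatic vessels and perivascular macrophages, measured 12.97 and 8.05 against 31.1 and 81.9 and the FVB/NJ arrays were far apart from each other. Serpina1b, a protease inhibitor of the liver, measured -3.15 and 9.84 against 68.3 and 92.3, and Slc38a4, an amino acid transporter, 12.3 and 12.3 against 21.6 and 33.9. The representative probe set differed in the hypothalamus by -2.685 for Serpina1b and was called. For Lyve1 and Slc38a4 it differed by -0.87 and -0.22 and was not called, and that of Lyve1 was called in the bnst, at -1.49.

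A direction that turned between regions was seen in 34 probe sets (0.0772%), called higher in at least 1 region and lower in another. Fcho1, which starts clathrin-coated pits, had the single probe set called in all 5 regions with both directions. In the pituitary it measured 211 and 224 in C57BL/6J and 97.8 and 91.0 in FVB/NJ, and in the brain arrays 158 to 229 in C57BL/6J and 280 to 438 in FVB/NJ. C57BL/6J thus kept a similar level in all 5 regions, and FVB/NJ was above it in the brain and below it in the pituitary (limma F test adjusted p = 1.59e-06). Its other probe sets differed in the mean by -0.93 and -0.14. The one at -0.14 turned as well, called at -0.78 in the hippocampus and 1.44 in the pituitary, and the one at -0.93 was called in no region.

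Lxn, latexin, an inhibitor of carboxypeptidases, differed by -0.64 in the pag and by 0.92 in the pituitary, where it measured 298 and 278 against 133 and 174. Ptk2b, the tyrosine kinase Pyk2, measured 103 and 83.6 against 200 and 186 in the hypothalamus and 72.7 and 49.3 against 38.4 and 27.4 in the pag, at differences of -1.05 and 0.88. The hippocampus, where Ptk2b was strongest at 1728 to 2171, had a difference of -0.24 that was not called. The other Ptk2b probe set was called in the bnst alone, at 1.15, and stood at -0.92 in the hypothalamus and 0.12 in the pag. H1f2, a linker histone, was higher in the hippocampus, hypothalamus and pag by 0.65, 0.58 and 0.51 and differed by -0.51 in the pituitary. Rdh16f2, a retinol dehydrogenase, changed sign between the bnst (-0.58) and the pituitary (1.09) at signals of at most 30.6.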

How the data were processed

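RNA of 5 regions was measured on 61 one-colour arrays, and the deposited intensity values were used. The authors processed the scanned arrays with the absolute analysis of TeraGenomics, which gives 1 background-corrected, globally scaled signal per probe set on a linear scale; its version and scaling target are not given in the sources used here. Present calls were not used here. No further scaling was applied in the main setting, values were floored at their 20th percentile (12.8) and log2 transformed. The table lists 45101 probe sets. Tests covered 44065 of them, without 64 controls and without 972 whose values never rose above the floor. Groups came from the sample titles, and all 61 value columns were mapped.

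In R 4.3.3 with limma 3.58.1, a mean for each of 30 groups of strain and region was fitted to all 61 arrays (lmFit, eBayes with a trend, 31 residual degrees of freedom). Contrasts took C57BL/6J minus FVB/NJ in each region, their mean, the F test of differences between regions, and each region against the other 4, with Benjamini-Hochberg adjustment over all probe sets and a threshold of 0.05. The code was tested on simulated data. Replicates came from different animals, 2 arrays a group. Whether regions of a strain shared animals is not stated, and the fit had no term for it.

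Names came from the platform's annotation, updated by Entrez ID through a RefSeq table of the mouse genome (34741 probe sets matched, 0 symbols changed): 34945 probe sets named 1 gene, 932 several and 9160 none, giving 17947 genes, each represented by its probe set with the highest mean signal. Named genes were, for each direction, the 12 with the largest mean difference among those called in all 5 regions, the 3 with the largest contrast for each region, the 5 with the smallest F test p among those of opposite direction, and members of 29 gene lists (572 of 644 genes measured). The comparison and the lists were chosen with earlier results of these data known, so counts over lists are descriptions. Alternatives were floors at the 10th and 30th percentile, median scaling, quantile normalization, a filter at a signal of 50, the 20 arrays alone, no trend, no log, the replicate number as a block, and each array left out; leaving out the bnst arrays and the 5 brain arrays with a Gh signal over 1000 was added after seeing the data.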

Additional observations from a re-analysis of the deposited data

Results flagged for a closer look

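For the genes named here, the difference between C57BL/6J and FVB/NJ was not the same in all regions by limma's F test, adjusted over all probe sets, in which 1.06% of probe sets passed. No cause was examined.

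Among genes called in all 5 regions, where the direction was shared and the size was not, the adjusted p was 1.33e-06 for Gdpd3, 9.70e-05 for Tmem87a, 0.000305 for Gnb1, 0.00525 for Acad9 and 0.00571 for Cap1. Acad9 was at 3.80 in the bnst and 1.89 in the pag, and Tmem87a at -5.38 in the pituitary and -3.81 in the bnst.

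Among genes different in 1 region, it was 2.59e-19 for Rab6b and 0.0137 for Stab2 (pituitary), 0.000105 for C1ql2, 0.00012 for Col11a1, 0.0251 for Lgr6, 0.0151 for Lgals3bp and 0.0470 for Scg2 (hippocampus), 0.0165 for Dsp and 0.0117 for Anxa5 (bnst), and 0.00171 for En1, 0.00312 for Gm39954 and 0.0403 for Muc1 (pag). F5 in the bnst (adjusted p = 0.0370) and Hrct1 in the pituitary (adjusted p = 0.00555) differed by the limma contrast of their region with the other 4. Among genes of opposite direction it was 1.59e-06 for Fcho1, 9.37e-06 for Lxn, 1.08e-05 for Ptk2b, 0.00102 for Rdh16f2 and 0.00127 for H1f2.

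Members of the gene lists passed the same limma F test at adjusted p of 0.000820 for Rasd2, 0.000923 for Kcnj9, 0.00129 for Esm1, 0.00221 for Aldh1l1, 0.00331 for Pomc, 0.00707 for Ctss, 0.00728 for H2-Eb1 and 0.00769 for Grp. The others were Gsto1 at 0.0110, Kcnip2 at 0.0116, Ndufs8 at 0.0223, Slc17a6 at 0.0251, Doc2b at 0.0348, Vwf at 0.0377 and C1qc at 0.0392. In the pituitary Aldh1l1, a folate enzyme of astrocytes, measured 145 and 140 in C57BL/6J and 92.5 and 63.8 in FVB/NJ. Pomc, the precursor of corticotropin, differed by -2.39 in the bnst, -1.93 in the pag and 0.22 in the pituitary. In the same regions the pituitary hormone Gh differed by -1.81, -1.84 and 0.25, none of them called, and replicate 1 of FVB/NJ bnst and of FVB/NJ pag were among the brain arrays with a Gh signal over 1000. The part of pituitary RNA in the Pomc values was not tested.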

How the results depend on the processing

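No named gene's called direction reversed under any alternative run. The counts within 1.5 times of the values in the report are not repeated, and the causes of the moves were not tested. With a floor at the 10th percentile, 292 probe sets varied between regions, and 439 differed in 1 region in the pituitary, 3 in the pag and 0 in the hypothalamus (limma after adjustment, 596 by the same rule at an unadjusted p under 0.05). With a floor at the 30th percentile, 815 varied, and those different in 1 region numbered 1047 for pituitary, 37 for hippocampus, 22 for bnst, 20 for pag and 12 for hypothalamus. Median scaling gave 2157 higher in the mean, 695 higher and 669 lower in the bnst, 231 lower in the hippocampus, 604 higher in the pag, 785 higher in the pituitary, 226 that varied, 12 of opposite direction, and 238 in the pituitary and 4 in the bnst alone. Quantile normalization gave 27 in the hippocampus alone. Probe sets with a signal of at least 50 gave 440 in the pituitary, 5 in the bnst and 2 in the pag alone. The 20 arrays of the strains by themselves gave 38 in the bnst, 17 in the hippocampus and 14 in the pag alone, and 84 of opposite direction. Signals without log gave 1287 that varied, and 1174, 23, 76, 39 and 34 in the pituitary, bnst, hippocampus, hypothalamus and pag alone.

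Among settings chosen after seeing the data, leaving out the bnst arrays gave 2311 lower in the mean, and 20 in the hippocampus and 6 in the hypothalamus alone. The other such setting left a single array of a strain in each brain region, so its moves can come from fewer arrays. Leaving out the 5 brain arrays with Gh gave 2153 higher and 2198 lower in the mean, 819 higher for bnst, 383 and 217 for hippocampus, 315 and 162 for hypothalamus, 626 and 377 for pag, 149 and 65 in all 5 regions, and 43, 17 and 27 in the bnst, hypothalamus and pag alone.

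Each array left out in turn gave 3050 to 3962 higher and 3044 to 3799 lower in the mean, 209 to 254 and 89 to 105 in all 5 regions, 404 to 646 that varied and 25 to 41 of opposite direction. By region, pituitary had 1167 to 1929 higher and 1066 to 1772 lower, bnst 602 to 1428 and 365 to 1394, pag 596 to 1228 and 324 to 743, hippocampus 384 to 641 and 224 to 382, and hypothalamus 427 to 766 and 182 to 431. The lowest of these counts came, in each region, without an array of that region. Differences in 1 region numbered 547 to 849 for pituitary, 7 to 51 for bnst, 6 to 33 for pag, 9 to 25 for hippocampus and 3 to 20 for hypothalamus, so the brain regions' own genes are few and depend on single arrays.

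The same replicate numbers in both strains mark no shared animal. Deviations of same-numbered arrays of the strains correlated at -0.16, 0.06, -0.19, -0.01 and -0.07 in the 5 regions. This compared the strains within a region only. It cannot show whether same-numbered arrays shared a batch or, across regions of a strain, animals. With the replicate block, the count in the bnst alone was 27, and no other count moved by over 1.5 times and no call of a named gene changed.

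Of the 40 named genes with values, those that lost their call were Muc1 and Rdh16f2 with the lower floor, H1f2 with the 20 arrays alone, 7 without log (Dsp, Muc1, Rab6b, Stab2, Lxn, Ptk2b and Rdh16f2), Lgr6 without the arrays with Gh, and, in 6 of 800 fits that left out 1 array, Lgr6, H1f2 and Hrct1. For signals near the floor, detection was not tested, and their differences are understated.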
